A study of Mus musculus with 8 samples.

Results

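The sarcoplasmic reticulum calcium store and pump genes were taken as the 10 genes Casq1, Casq2, Trdn, Jsrp1, Asph, Hrc, Srl, Sln, Atp2a1 and Atp2a2, and their probes as those that the platform annotation assigns to 1 of these genes and no other. The rule found 14 probes for 9 of the 10 genes, among 31769 probes in all, of which 18976 named exactly 1 gene. The annotation used here listed no such probe for Srl. The single Sln probe had no value on any array, as was the case for 7072 probes. The results below therefore rest on 13 probes of 8 genes. The genes were chosen by their place in calcium storage and pumping and by measured values, the HDAC4 and Neo log2 ratios and the scatter of Casq2 among arrays. The difference between these groups and that scatter are therefore described without a test of any gene of the set. Counts of these genes past a threshold stand beside the same share of all features, and nothing is read from them.

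Skeletal muscle stores calcium in the sarcoplasmic reticulum, releases it at the triad to start contraction and pumps it back to relax. Calsequestrins bind calcium in the lumen of the terminal cisternae. Triadin and junctin tether calsequestrin to the ryanodine receptor, the release channel. The SERCA pumps return calcium from the cytosol to the lumen, and small membrane peptides such as sarcolipin hold them back.

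RNA came from the mouse myoblast cell line C2C12, whose cells fuse to form myotubes once serum is lowered. The 4 Neo samples came from cells stably selected with a control retrovirus encoding Neo. The 4 HDAC4 samples came from cells selected with a retrovirus that expresses HDAC4. This deacetylase of class IIa binds the muscle transcription factor MEF2 and represses its targets. All cells were taken to 90% confluence and then kept for 4 days in medium with 2% horse serum. The study asked how expression in the 2 kinds of differentiated cells differs, and its title names the dystrophin-glycoprotein complex. Each array held 1 sample labelled with Cy5 and a murine reference RNA labelled with Cy3, which the labels' protocols trace to liver. The labels do not state that replicates are separate cultures, and if they are not, the p-values reflect technical scatter alone. Hdac4 itself was not analysed here, as no probe was named for it.

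Values are log2 ratios after each array was centred on its median, and they were read as cells over reference, a direction that is likely but not stated in the labels. Every sign in the text depends on it. Where a probe's reference signal lay at an inferred floor of 10 units, 10 times the ratio was a whole number and gave the signal of the cells in those units. The floor call rests on that whole number alone. Non-whole signals of the 13 probes carried at most 4 digits, such as 669.9 and 93.56. If the ratios were rounded so, a signal with 4 digits before the point is whole whatever its reference. For such signals the call could not come out otherwise, and every reading that uses it shares that limit. Of the 94 values of the 13 probes, 56.4% counted as at the floor, against 10.0% of all values on the arrays. Probes at the floor on every array tended to be lower in HDAC4. For 206 probes every array counted as at the floor. Their median difference was -0.55 (HDAC4 minus Neo, log2), and 90.3% of them were lower in HDAC4. HDAC4 arrays also carried fewer values, 17014 to 18521 against 19248 to 22193 in Neo, and the arrays numbered 1 stood apart from the others in both groups. The part of these patterns in the differences below was not tested. For the calcium store and pump genes the readings with the floor offset removed and without the arrays numbered 1 are given too. Readings with the median offset removed are a second view of the data and not corrected values.

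The cultures had the markers of myotubes. Of 12 myotube genes listed, 8 were on the array and had a value on every array, with a median log2 ratio per array of 8.10 to 8.54 in Neo and 8.11 to 8.41 in HDAC4. The list of undifferentiated or cycling myoblast genes lay below the reference by its medians, -3.65 to -2.74 in Neo and -3.83 to -2.58 in HDAC4, the highest of each group on the array numbered 1. Its gene Myf5 lay above the reference, with means of 1.49 in Neo and 1.09 in HDAC4. The other tested genes of that list were Id and cell cycle genes, all with means below 0. Of the heart muscle list 5 of 6 genes were on the array, none had a value on all 8 arrays, and an array had values for 0 to 2 of them. The smooth muscle list gave 1 to 3 genes per array, the adipocyte list 1 to 3, the osteoblast list 0 to 1 and the liver list 0 to 3. Where an array had any, the liver genes had medians of -0.01 to 0.75 in Neo and 0.37 to 0.74 in HDAC4. These few values lay near the reference or above it, and the liver source given in the protocols was not tested. In a culture, fewer cells of a type and less RNA per cell cannot be told apart.

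The promoter sequences of the calsequestrin genes are shown first, because among the genes of the set these 2 varied most between arrays. The MEF2 consensus was searched because HDAC4 binds MEF2, and a link between the sequences and the measured values was not tested. RefSeq promoter windows were found for 4 of the 10 genes, Casq1, Casq2, Hrc and Atp2a1. The 250 bases before the annotated start are printed 5′ to 3′ on the strand of the gene, in build GRCm38.p6, with matches to the MEF2 consensus and to the E-box CANNTG in capitals.
Casq2, chr3:102086165-102086414, plus strand: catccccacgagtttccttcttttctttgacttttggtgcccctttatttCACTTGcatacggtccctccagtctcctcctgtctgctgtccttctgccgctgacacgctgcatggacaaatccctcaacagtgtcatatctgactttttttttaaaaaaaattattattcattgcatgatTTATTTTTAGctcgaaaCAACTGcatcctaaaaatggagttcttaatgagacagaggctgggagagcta
Casq1, chr1:172219896-172220145, minus strand: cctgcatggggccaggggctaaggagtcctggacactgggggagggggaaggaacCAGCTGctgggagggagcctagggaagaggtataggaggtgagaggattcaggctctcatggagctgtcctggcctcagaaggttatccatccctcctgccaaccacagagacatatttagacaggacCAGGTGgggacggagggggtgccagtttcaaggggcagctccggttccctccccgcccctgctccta

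The Casq2 window held 1 match to the MEF2 consensus, at bases -69 to -60 counted from the start, and 2 E-boxes, the nearer at -52 to -47. The Casq1 window held no MEF2 match and 2 E-boxes, CAGCTG at -195 to -190 and CAGGTG at -67 to -62. The Hrc and Atp2a1 windows held 1 E-box each and no MEF2 match. For Atp2a1 the start used, base 126463073, lay inside the annotated edge of the gene at 126463103, so its window overlaps the gene. Both strands were searched over windows of the same length, and 2.92% of 32851 RefSeq promoters held the MEF2 consensus while 66.2% held CANNTG. The M-CAT motif CATTCC (12.6% of promoters), the CArG box (1.47%) and TATAAA (12.4%) had no match in the 4 windows. These matches describe the letters and say nothing about binding in these cells.

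Casq2, the calsequestrin of heart that slow and developing skeletal muscle also make, spanned a 122-fold range over the arrays. Its probe M200003369 stood at 8.45, 5.95, 8.02 and 6.04 on Neo replicates 1 to 4. On HDAC4 replicates 1, 2 and 3 it stood at 7.74, 1.52 and 2.49, and HDAC4 replicate 4 had no value. HDAC4 replicate 1 lay within the Neo range, and HDAC4 replicates 2 and 3 lay far below every Neo array.

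In units of the scanner ratio, 10 times cells over reference, the Neo arrays read 3536, 622, 2616 and 670 and the HDAC4 arrays 2143, 29 and 57. All of these but that of Neo replicate 4 counted as at the reference floor, and for 3536, 2616 and 2143 rounding alone may have made the call. The HDAC4 arrays thus held a value of Neo size beside values close to the floor of 10 units. Casq2 averaged 7.12 ± 1.31 (SD, n = 4) on the Neo arrays and 3.92 ± 3.34 (SD, n = 3) in HDAC4. The difference of -3.20 ± 1.38 (SE) is 9.19-fold, and the groups overlapped through the single HDAC4 replicate 1 array.

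Between the arrays numbered 1 the Casq2 difference was -0.72, against -4.43 for number 2 and -5.53 for number 3. Without the arrays numbered 1 it was -4.66, on 3 Neo and 2 HDAC4 values that did not overlap. With the floor offset removed it was -2.65. Leaving out 1 array at a time, where 3 values stayed in each group, gave -3.59 to -2.75.

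Casq1, the calsequestrin of fast skeletal muscle, varied between arrays in both groups and did not follow Casq2. Its probe M200003140 stood at 4.56, 5.93, 6.02 and 1.46 on Neo replicates 1 to 4 and at 2.88, 4.84, 5.87 and 3.50 on HDAC4 replicates 1 to 4. The lowest value was on a Neo array, replicate 4, and was the single Casq1 value not at the reference floor. In scanner units the Neo arrays read 239, 613, 653 and 28.2, and the HDAC4 arrays 74, 288, 594 and 115.

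Casq1 averaged 4.50 ± 2.13 (SD, n = 4) on the Neo arrays and 4.27 ± 1.34 (SD, n = 4) on the HDAC4 arrays. The groups overlapped, and the difference was -0.22 ± 1.0 (SE). Same-numbered arrays differed by -1.68, -1.10, -0.15 and 2.03 for numbers 1 to 4. Without Neo replicate 4 the difference was -1.23, and without Neo replicate 3 it was 0.28. It was also above 0 without Neo replicate 2 (0.26), HDAC4 replicate 1 (0.24) or HDAC4 replicate 4 (0.03), without both arrays numbered 1 (0.26), and with the floor offset removed (0.33). Over the 7 arrays with both values, Casq1 and Casq2 had a Pearson r of -0.21, given as a description over arrays that share a reference and a processing.

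**Figure D1:**
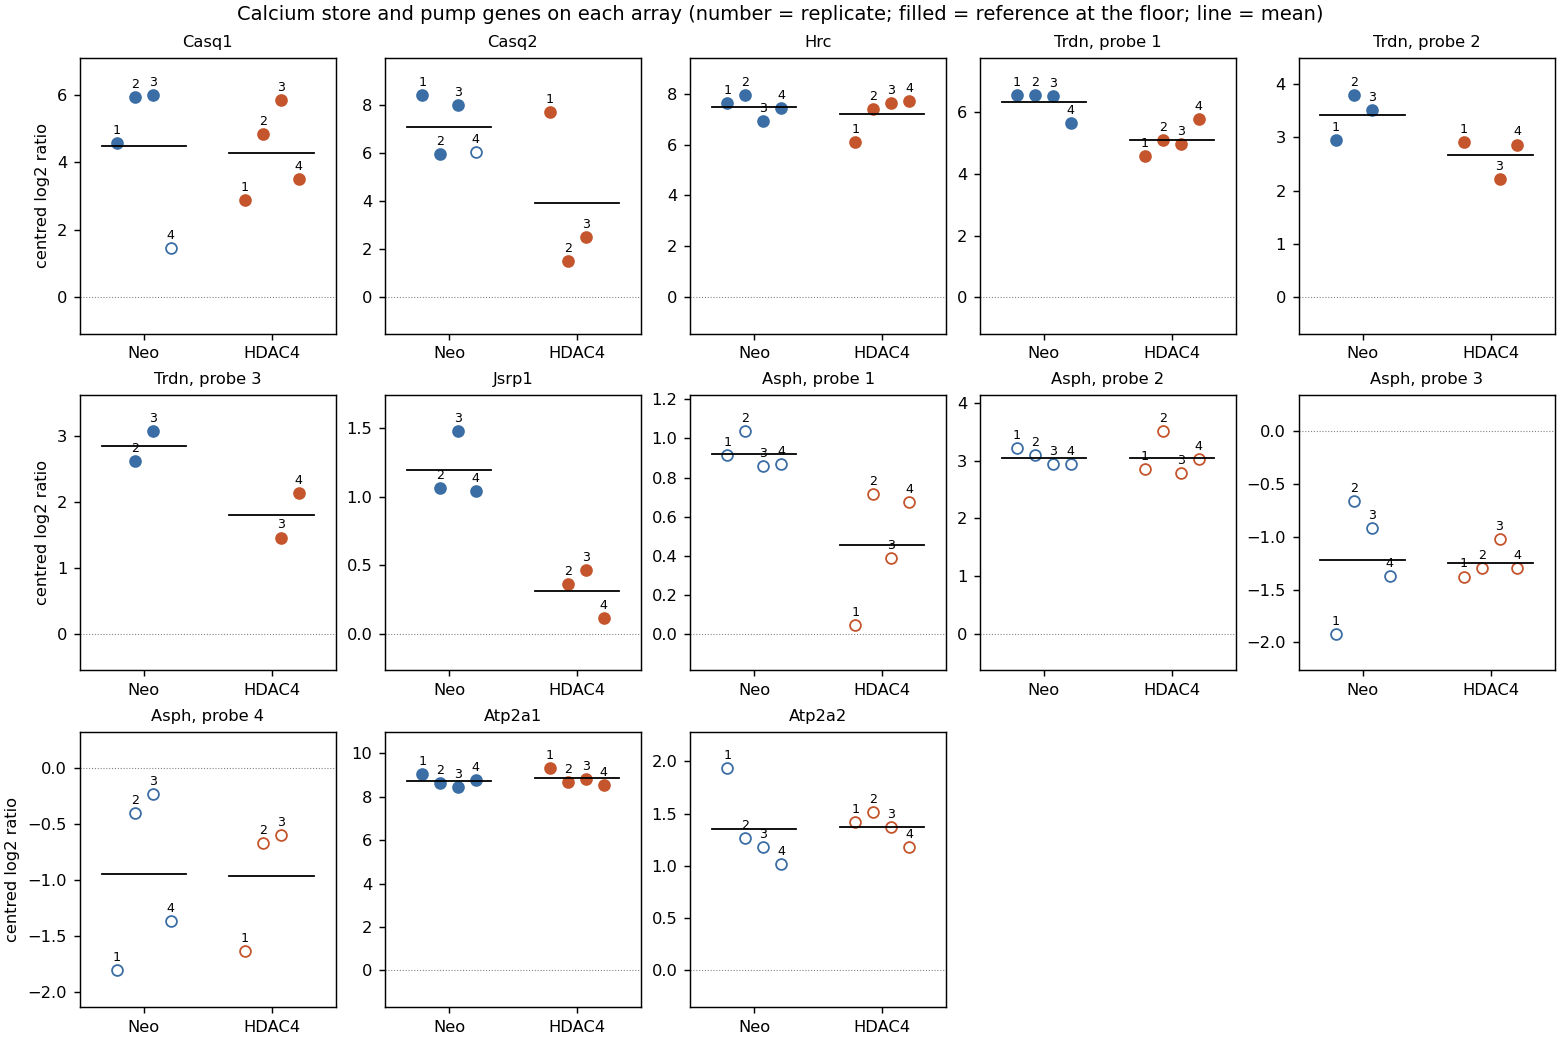
Centred log2 ratio (y axis, a scale of its own in each panel) of the 13 measured probes on the Neo (blue) and HDAC4 (orange) arrays, with the replicate number at each point, filled points where the value counted as at the floor and a line at the group mean. Casq2 falls to 1.52 and 2.49 on HDAC4 replicates 2 and 3, Casq1 to 1.46 on Neo replicate 4, and the Atp2a1 arrays stay between 8.46 and 9.33.

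The 2 calsequestrin probes were among the least steady on the arrays. The SD within the groups, pooled over Neo and HDAC4, was 2.54 for Casq2, the largest of the 16748 probes with at least 3 values in each group. It was 1.78 for Casq1, which ranked 7. The median over these probes was 0.268, and over the 104 of them with a mean log2 ratio above 5 it was 0.364. The probe ranked 2 belonged to Actn2, a Z-disc protein, named here after its values were seen. It stood at 0.67 on HDAC4 replicate 2 and between 6.45 and 7.78 on the other 7 arrays. The array that was low differed between these genes, with HDAC4 replicate 2 low for Casq2 and Actn2 and Neo replicate 4 low for Casq1.

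**Figure D2:**
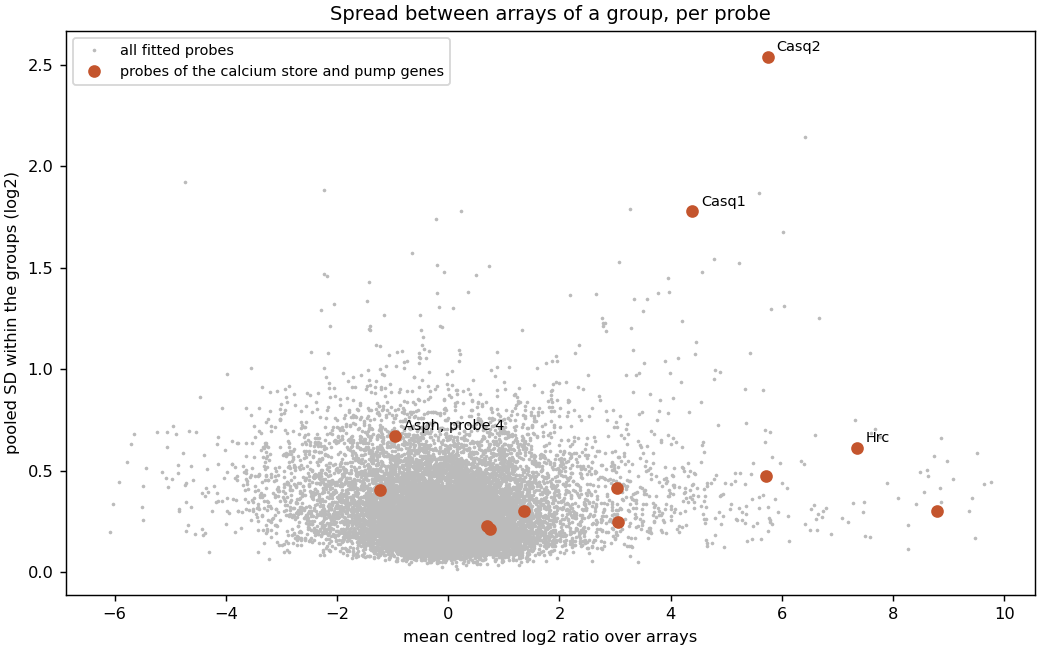
Pooled SD within the groups (y axis, log2) against the mean centred log2 ratio (x axis) for 16748 probes (grey) and for the 12 fitted probes of the calcium store and pump genes (orange), with names for those above the 90th percentile of SD. Casq2 at 2.54 is the highest point, Casq1 lies at 1.78; the other fitted probes are lower.

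Hrc, the histidine-rich calcium-binding protein of the lumen, kept a high ratio on all 8 arrays. Probe M300011435 stood at 7.62, 7.97, 6.93 and 7.44 on Neo replicates 1 to 4 and at 6.10, 7.38, 7.63 and 7.71 on HDAC4 replicates 1 to 4. All counted as at the floor. Only HDAC4 replicate 1, at 687 units, had fewer than 4 digits before the point, so for the others (1228 to 2509) rounding alone may have made the call. HDAC4 replicate 1 was the lowest of the 8, and the other 3 HDAC4 arrays lay inside the Neo range. The means were 7.49 ± 0.43 (SD, n = 4) and 7.20 ± 0.75 (SD, n = 4), a difference of -0.29 ± 0.36 (SE). The sign was not stable, with 0.13 without the arrays numbered 1, 0.08 without HDAC4 replicate 1 and 0.26 with the floor offset removed. Among the 206 floor probes 69.9% had a lower difference than Hrc, a share that rests on the same call, as does the reading of 0.26.

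Of the proteins that hold the store at the release channel, triadin was lower in HDAC4 on the mean of each of its 3 probes. The strongest probe, M200014793, stood at 6.58, 6.57, 6.54 and 5.66 on Neo replicates 1 to 4 and at 4.58, 5.10, 4.96 and 5.77 on HDAC4 replicates 1 to 4. The first 3 arrays of each group were well separated, and the arrays numbered 4 lay close together, with HDAC4 above Neo by 0.11. The means were 6.34 ± 0.45 (SD, n = 4) and 5.10 ± 0.50 (SD, n = 4), 2.35-fold lower in HDAC4, a difference of -1.23 ± 0.29 (SE) with overlapping groups.

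Trdn probe M300001830 stood at 2.95, 3.80 and 3.51 on Neo replicates 1 to 3 and at 2.92, 2.21 and 2.86 on HDAC4 replicates 1, 3 and 4. The groups did not overlap, but by 0.03 only between the arrays numbered 1. Its difference was -0.76 ± 0.28 (SE). Probe M300001831 had 2 values in each group, 2.63 and 3.08 on Neo replicates 2 and 3 and 1.46 and 2.15 on HDAC4 replicates 3 and 4. That probe was too sparse to be fitted, and its means differed by -1.05.

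All values of the Trdn probes were at the floor. With the floor offset removed the 3 differences were -0.68, -0.21 and -0.50. Among the 206 floor probes 10.7% had a lower difference than the strongest Trdn probe. Without the arrays numbered 1 the 3 differences were -0.98, -1.12 and -1.05. The gene's mean over its probes, -0.95 ± 0.45 (SE), mixes probes of different levels with missing values, and ranged from -1.38 to -0.63 when 1 array was left out.

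Jsrp1, the junctional protein JP45 that binds calsequestrin and the voltage sensor, was measured near its lower limit. Probe M200014189 had no value on the arrays numbered 1. It stood at 1.06, 1.48 and 1.04 on Neo replicates 2 to 4 and at 0.37, 0.46 and 0.11 on HDAC4 replicates 2 to 4. These are 21, 28 and 21 scanner units against 13, 14 and 11, with the floor at 10, and the groups did not overlap. The means were 1.19 ± 0.24 (SD, n = 3) and 0.31 ± 0.18 (SD, n = 3), a difference of -0.88 ± 0.19 (SE). As the HDAC4 signals lay close to 10 units, no fold is given. HDAC4 was lower in each of the 3 same-numbered pairs, by between -1.01 and -0.70. With the floor offset removed the difference was -0.33.

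Asph encodes aspartyl beta-hydroxylase and, from other transcripts of the same gene, junctin and junctate, and its 4 probes did not move as a unit. None of their values was at the floor. Probe M300005994 stood at 0.92, 1.04, 0.86 and 0.87 on Neo replicates 1 to 4 and at 0.05, 0.72, 0.39 and 0.67 on HDAC4 replicates 1 to 4. All 4 HDAC4 arrays lay below all 4 Neo arrays, a difference of -0.46 ± 0.17 (SE), and of -0.33 without the arrays numbered 1.

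Asph probe M300005995 averaged 3.05 ± 0.13 (SD, n = 4) for Neo and 3.05 ± 0.33 (SD, n = 4) for HDAC4. Probe M300005996 averaged -1.22 ± 0.55 (SD, n = 4) and -1.25 ± 0.15 (SD, n = 4). Probe M300005997 averaged -0.95 ± 0.76 (SD, n = 4) and -0.97 ± 0.57 (SD, n = 3). The groups of these 3 probes overlapped. Without the arrays numbered 1 their differences were 0.11, -0.22 and 0.03. The probes also disagreed on the side of the reference, with 2 above 0 on all 8 arrays and 2 below 0 on every array with a value. The transcript that each probe reads was not determined.

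The pump genes had small differences over all arrays, a reading that for Atp2a1 depended on the floor offset. Atp2a1, which encodes SERCA1, the pump of fast fibres, stood at 9.06, 8.62, 8.46 and 8.78 on Neo replicates 1 to 4 and at 9.33, 8.69, 8.83 and 8.55 on HDAC4 replicates 1 to 4. The arrays numbered 1 were the highest of each group, and the groups overlapped. The means were 8.73 ± 0.26 (SD, n = 4) and 8.85 ± 0.34 (SD, n = 4), a difference of 0.12 ± 0.20 (SE) for probe M200007718. All values counted as at the floor, but each signal had 4 digits before the point (3542 to 6479 units), so rounding alone may have made the call. Of the 206 floor probes 93.2% had a lower difference. That share and the reading without the offset rest on this call. With the floor offset removed the difference was 0.67, without both arrays numbered 1 it was 0.07, and without HDAC4 replicate 1 it was -0.04.

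Atp2a2, which encodes SERCA2, the pump of slow fibres and heart and in another isoform that of most cells, had no value at the floor. Probe M300006691 stood at 1.94, 1.27, 1.18 and 1.02 on Neo replicates 1 to 4 and at 1.42, 1.52, 1.37 and 1.18 on HDAC4 replicates 1 to 4. Neo replicate 1 was the highest array, and the HDAC4 arrays lay inside the Neo range. The means were 1.35 ± 0.41 (SD, n = 4) and 1.37 ± 0.14 (SD, n = 4), with a difference of 0.02 ± 0.20 (SE). Leaving out 1 array gave -0.09 to 0.22, and the arrays numbered 2 to 4 alone gave 0.20.

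**Figure D3:**
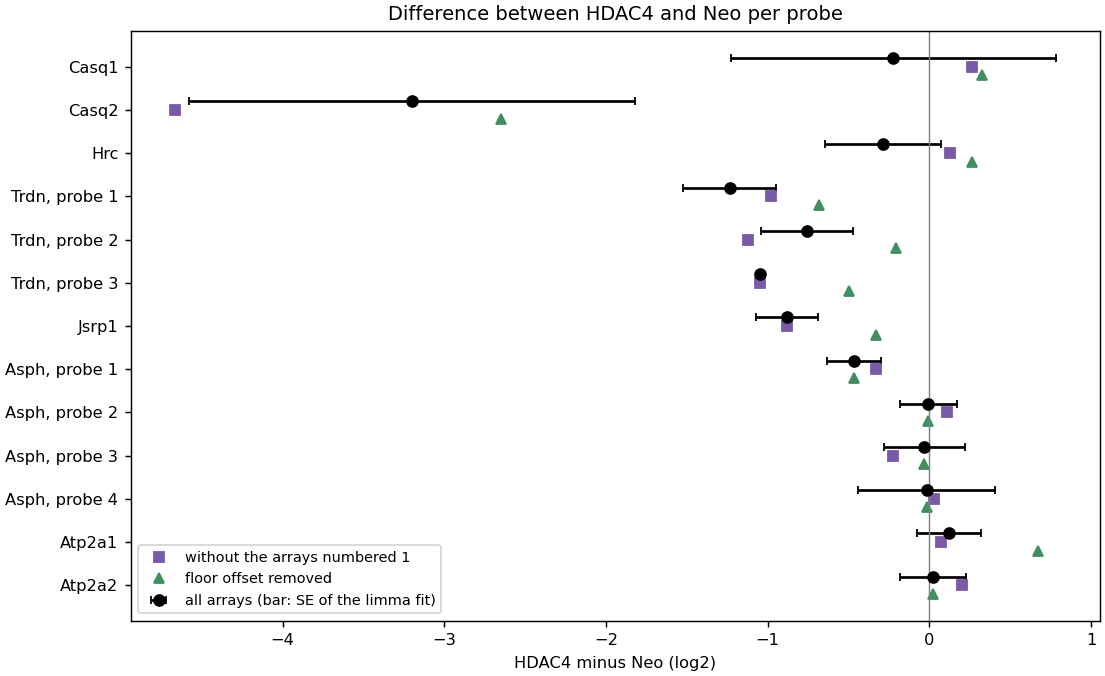
Difference between the HDAC4 and Neo means per probe (x axis, log2) over all arrays (black, bars SE of the limma fit where it was fitted), without the arrays numbered 1 (squares) and with the floor offset removed (triangles). Casq2, the Trdn probes, Jsrp1 and Asph probes M300005994 and M300005996 stay below 0 in the readings shown, and Casq1, Hrc and Asph probes M300005995 and M300005997 change sign. Jsrp1 and Trdn probe M300001831 have no value on the arrays numbered 1, so for them that reading repeats the first.

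Over the 13 measured probes 11 had a lower mean in HDAC4 and 2 a higher mean, with a median difference of -0.29. Of the 12 fitted probes 10 were lower, where 50.6% of all 16748 fitted probes were (50.5% of features). Groups that did not overlap, with HDAC4 below Neo, were found for 3 of the 12 fitted probes, those of Jsrp1, Trdn and Asph, and for 3.18% of all fitted probes. The Jsrp1 and Trdn probes had only 3 values in each group, all at the floor, and groups of 3 separate more easily than groups of 4. The reverse order was found for 0 of the 12 and for 2.07% of all. As genes, 6 of the 8 were lower, and in limma 0 of the 8 passed an adjusted p of 0.05, with 2 lower at an unadjusted p under 0.05, where 4.57% of all features were. Over all 14750 features 0.115% passed, 0.108% lower and 0.00678% higher, and 5.32% had groups that did not overlap. In limma 0 features passed without Neo replicate 2, 3 or 4, with 838 to 877 at an unadjusted p under 0.05. The replicate block gave 9 features in place of 17. With replicate 1 as a batch 0 of the 8 genes passed, against 0.488% of features lower and 0.136% higher. Without the arrays numbered 1, where 2.23% of features passed, 1 of 7 genes did, Jsrp1. Its own values are the same as in the main fit because it has none on those arrays. Nothing is read from its passing, as the genes were chosen with this contrast in view. Without the arrays numbered 1, 2 of 7 genes were lower, Trdn and Jsrp1, and Casq2, lower by its mean there too, had too few values to be fitted. With the floor offset removed 4 of the 8 genes were lower, among them Casq2.

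A second split of the arrays was replicate 1 against replicates 2 to 4, with the group as a term. It differs from the contrast of HDAC4 and Neo, but the scatter of Casq2 among arrays, used in choosing the genes, enters it. The arrays numbered 1 were known beforehand to stand apart. Of the 7 genes with values on both sides, 2 passed at an adjusted p under 0.05 in limma, both higher on the arrays numbered 1, where 20.3% of all features passed, 9.97% higher and 10.4% lower. Atp2a1 was higher there by 0.54 ± 0.13 (SE; adjusted p = 0.0266), on an average of 9.20 against 8.66 on the other arrays, and both arrays numbered 1 lay above the other 6. Casq2, the other gene counted, averaged 8.09 on the arrays numbered 1 and 4.80 on the other 5 with a value. That pattern was known when the genes were chosen, so nothing is read from its passing. The other 5 genes had coefficients between -0.88 for Casq1 and 0.42 for Atp2a2 and did not pass. The same arrays were higher for genes of undifferentiated or cycling myoblasts, of which 6 of 10 passed in limma. Mcm5, a replication factor picked here after its values were seen, was higher by 1.15 ± 0.11 (SE; adjusted p = 0.0015). The 8 myotube genes had coefficients from -0.46 for Des to 1.51 for Tnnt3, with limma adjusted p-values from 0.0503 for Tnnc2 upward. The part of this in the Atp2a1 and Casq2 values was not tested.

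Of the other genes that handle calcium, 67 were listed by role, 53 were on the array and 45 were tested. In limma 0 of the 45 passed an adjusted p of 0.05 between HDAC4 and Neo, and at an unadjusted p under 0.05 there were 4 lower and 1 higher, against 4.57% and 2.77% of all features. Lower means were seen for 27 and higher means for 18, with a median difference of -0.05 against -0.0028 over all features.

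The release genes cover the voltage sensor, the ryanodine receptors and the junctions between their membranes, and the list also held Fkbp1a, Itpr2 and Itpr3. Of 11 tested, 4 were lower and 7 higher. Cacng1, a subunit of the muscle calcium channel, had a difference of 0.63 ± 0.39 (SE; adjusted p = 0.824), and 1.18 with the floor offset removed. Cacna2d1, another subunit, had one of -0.57 ± 0.25 (SE; adjusted p = 0.674). HDAC4 replicate 1 stood at 2.36 for Cacna2d1 and the other 3 HDAC4 arrays between 1.39 and 1.43.

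Among the pump regulators and other pumps 2 of 3 tested genes were lower. Mrln encodes myoregulin, a micropeptide of skeletal muscle that inhibits SERCA. It stood at 4.19, 4.29, 4.57 and 4.30 on Neo replicates 1 to 4 and at 3.08, 3.68, 3.75 and 4.12 on HDAC4 replicates 1 to 4. The groups did not overlap, with a difference of -0.68 ± 0.21 (SE; adjusted p = 0.467). Every Mrln value was a floor value, and the difference was -0.13 once the offset was taken off. Atp2a3, a SERCA pump of non-muscle cells, had a difference of 0.08 ± 0.23 (SE; adjusted p = 0.969).

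Both tested genes of store-operated entry had a lower mean in HDAC4. Orai1, the channel of the surface membrane, had a difference of -0.49 ± 0.19 (SE; adjusted p = 0.604), and 0.06 with the floor offset removed. Stim1, the calcium sensor of the reticulum, had one of -0.21 ± 0.14 (SE; adjusted p = 0.856).

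The lumenal binding proteins and chaperones that muscle shares with other cells differed little, with 7 lower and 3 higher of 10 and a median of -0.06. Calu, calumenin, had a difference of -0.16 ± 0.15 (SE; adjusted p = 0.896). Calr, calreticulin, the main calcium buffer of the reticulum in non-muscle cells, had one of 0.15 ± 0.15 (SE; adjusted p = 0.904). None of the values of Calr or Calu was at the floor.

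Of the cytosolic calcium-binding genes 4 of 6 were lower, with -0.22 ± 0.21 (SE; adjusted p = 0.893) for Pvalb, the buffer parvalbumin of fast fibres (0.33 with the floor offset removed), and -0.17 ± 0.13 (SE; adjusted p = 0.878) for S100a4. Of the calcium signalling genes 8 of 13 were lower. Rcan2, a regulator of calcineurin, had a difference of -0.60 ± 0.23 (SE; adjusted p = 0.603), and Camk2b, a calmodulin-dependent kinase, one of -0.55 ± 0.39 (SE; adjusted p = 0.861), and -0.0020 with the floor offset removed.

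**Figure D4:**
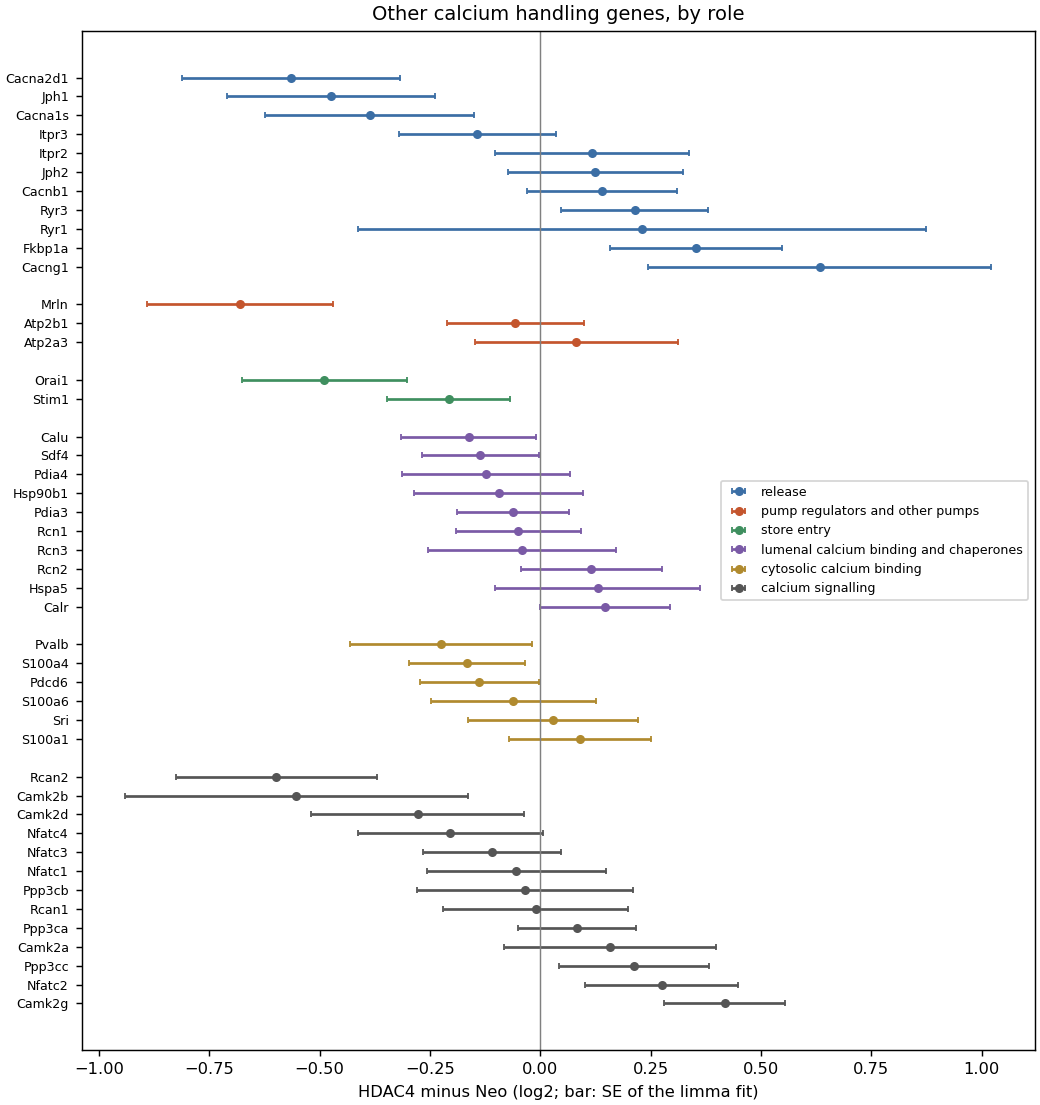
Difference between HDAC4 and Neo (x axis, log2, bars SE of the limma fit) for the 45 tested genes of other calcium handling roles, coloured by role and ordered by value within it. The points lie between -0.68 for Mrln and 0.63 for Cacng1, and no gene passed the adjusted threshold.

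Genes with the most similar pattern over arrays were sought among 7928 named genes with a value on all 8 arrays. For Casq2, over the 7 arrays with a value, they were Phf7 (Pearson r of 0.99), Nek8 (0.98) and Manba (0.98). These genes moved far less, and Phf7 lay between 0.18 and 0.69 on the 8 arrays. For Casq1, over 8 arrays, they were Rfng (0.96), Sgo2a (0.94) and Thap7 (0.94). For Atp2a1 they were Lin54 (0.99), Tsen34 (0.97) and Cptp (0.97), and the arrays numbered 1 were high for all 3 as for Atp2a1. The gene ranked 50 still had an r of 0.92 for Casq2, 0.81 for Casq1 and 0.92 for Atp2a1. With so few arrays, which share a reference and include the pair numbered 1, these values are a description.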

How the data were processed

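The authors deposited 1 log2 ratio of the 2 dyes per probe and array. The sources used here do not give their software, background correction, normalization or filters. Probes were named from the platform annotation, with symbols updated by gene identifier through the RefSeq table of GRCm38.p6. Arrays were centred on their medians, which lay between 0.00576 and 0.0286. A gene's value was the mean over its probes, and features needed 3 values in each group. HDAC4 and Neo were compared with limma 3.58.1 in R 4.3.3 (lmFit, eBayes), with Benjamini-Hochberg adjustment at 0.05 over 14750 features. The fit was tested on simulated data with independent noise on each array. That simulation held no effect of replicate 1 and no floor offset, so it cannot show how the fit behaves under them. A value counted as at the floor when 10 times the ratio was at least 10 and whole within 0.001, which rounding alone may give for the largest signals. The number of arrays limits the precision.

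Members and lists were chosen with earlier results of these data known. Named besides the members were the 2 genes of each role with the largest absolute difference, any past the threshold, and the 3 genes most like Casq1, Casq2 and Atp2a1. Deviations from the group means correlated between arrays of the same number at 0.52, 0.30, 0.19 and 0.11 for numbers 1 to 4. All exceed 0.1, the limit used here for treating the numbers as a possible pairing. Differently numbered arrays correlated at up to 0.25 (Neo replicate 2 with HDAC4 replicate 4), which is above the values for numbers 3 and 4. The correlations therefore do not show that numbers 3 and 4 pair the arrays, and the value for number 1 was the highest. Values printed come from the fit without the replicate block, which was run as an alternative.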

Additional observations from a re-analysis of the deposited data

Results flagged for a closer look

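In 2 of 38 groups of 4 arrays examined, 1 array stood apart from the other 3 by more than the usual limit for such a gap. Chance gives this in about 1 in 20 groups. The first was Neo replicate 4 for the strongest Trdn probe, at 5.66 where the other Neo arrays lay between 6.54 and 6.58. The second was HDAC4 replicate 1 for Cacna2d1, at 2.36.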

How the results depend on the processing

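The count of features past the threshold between HDAC4 and Neo was 17. The replicate block gave 9, and the count was 92 with replicate 1 as a batch, 305 without both arrays numbered 1, 1 with values at the floor left out and 0 with the floor offset removed (limma, 1074 at an unadjusted p under 0.05). Leaving out 1 array gave 0 to 65, with 62 and 65 without HDAC4 or Neo replicate 1 and 0 without Neo replicate 2, 3 or 4 (838 to 877 at an unadjusted p under 0.05). The 6 lower members became 2 of 7 without both arrays numbered 1 (Casq2, lower there too, could not be fitted), 1 of 2 with floor values left out, and 10 of 12 with each probe on its own, and lay between 3 and 6 when 1 array was left out. The count of other calcium handling genes past the threshold was 0 in limma under all 19 alternatives, with 3 to 8 at an unadjusted p under 0.05. Replicate 1 against the others gave 2978 features, and 1790 to 3203 with 1 array left out, the lowest without HDAC4 or Neo replicate 1 (1790 and 1849). Of 126 alternative values for the 8 member genes, 2 moved by more than the spread within groups, both with the floor offset removed, and 19 changed sign, all of them for Casq1, Hrc, Asph, Atp2a1 or Atp2a2. The replicate block changed no call of a member or listed gene.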
